A study of Homo sapiens with 4 samples.

Results

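The mRNAs of the translation factors other than eIF3 were examined in Huh7 cells, a line established from a human hepatocellular carcinoma, with and without a guide against METTL16, an RNA methyltransferase. The members were chosen by name, as every gene symbol of the deposited table that starts with EIF and a digit or with EEF1 or EEF2, without the eIF3 subunits, the eIF2 kinases (EIF2AK), EIF1AY and EEF1E1. The rule took 45 of the 18806 genes. Of the 45 members, 43 had a mean of at least 1 TPM over the 4 libraries and were tested. The other 2 were listed near 0, EIF4E1B at 0.10, 0, 0 and 0.09 TPM and EIF4EBP3 at 0.25 TPM in 1 sgNS library and at 0 in the other 3 libraries.

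All cells came from a single Huh7 clone that stably expressed Cas9, and lentivirus carried the guide into them before selection with hygromycin B. The control group (sgNS, 2 libraries) received a non-targeting guide and is labelled WT. The other group (METTL16 KO, 2 libraries) received a guide against METTL16 and is labelled a knockdown, although the design calls the cells KO. Which METTL16 guide the libraries carry is not given in the sources used here. The values are TPM, that is each gene's share of a fixed total of transcripts after correction for transcript length, so levels can be set side by side between genes, whereas the depth of the libraries is unknown.

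METTL16 itself was listed at 26.3 and 25.1 TPM with sgNS and 17.6 and 18.8 TPM upon METTL16 KO, a log2 change of -0.50 (standard error, SE, 0.062). Its adjusted p was 2.4e-05 (limma, Benjamini-Hochberg over 11971 genes). The hepatocyte genes ALB, AFP, APOA1, APOB, TTR, SERPINA1, TF and FGB were at 357.76 TPM or more in every library. Of the genes that mark other cells, PTPRC, COL1A1 and KRT5 were below 1 TPM in every library. PECAM1 was at 5.14 and 4.74 TPM with sgNS and 3.09 and 2.70 TPM upon METTL16 KO. PECAM1 fell by 0.75 on the log2 scale, and of the 8 hepatocyte genes 6 rose, led by AFP at 2.54, FGB at 1.84 and APOA1 at 0.80, and 2 fell, TF by 0.43 and APOB by 0.17. After scaling 5 of them were higher and 2 lower. The part of these shifts in the results on translation factors was not tested. The median log2 fold change over all genes tested was 0.16, and the 100 most abundant genes of a library held 32.6% and 32.8% of the total with sgNS and 28.6% and 28.7% upon METTL16 KO. The part of this shift in the results was not tested. The changes of the members are therefore also given after median-ratio scaling, in which the typical gene is held level between libraries and which brought that median to -0.0016. The RNA is from bulk cultures, so a change in every cell and a change in some of the cells cannot be told apart.

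Translation begins when eIF2 carries the initiator tRNA to the small ribosomal subunit, and eIF2B reloads eIF2 with GTP after each round. The cap-binding complex eIF4F, made of eIF4E, the scaffold eIF4G and the helicase eIF4A, recruits the mRNA, the scanning factors eIF1 and eIF1A help to find the start codon, and eIF5 and eIF5B complete the joining of the large subunit. During elongation eEF1A delivers aminoacyl-tRNA, the other eEF1 subunits form the complex that exchanges its nucleotide, and eEF2 moves the ribosome along the mRNA. In liver cancer, as in other tumours, eIF4E and its inhibitors are studied as a control point of growth. Several of these genes produce TOP mRNAs, which start with a C followed by a tract of pyrimidines and whose translation responds to mTORC1.

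The start sites of 8 members are shown as examples of eEF1, eEF2, eIF2 and eIF4 mRNAs. All but 2 have such a tract at the annotated start shown, which need not be the start used in Huh7 cells. EEF1B2 has another annotated start, not shown, without such a tract. Whether the mRNAs of these 2 are TOP mRNAs was not tested. Each sequence runs 5′ to 3′ on the strand of the gene and holds the 15 bases before and the 15 bases from the transcription start annotated by RefSeq on GRCh38, and capitals mark a C within 2 bases of the start with an unbroken run of at least 4 C or T after it. The windows lie at chr6:73521018-73521047 on the minus strand for EEF1A1, chr2:206159880-206159909 on the plus strand for EEF1B2, chr19:3985449-3985478 on the minus strand for EEF2 and chr12:53006441-53006470 on the plus strand for EIF4B. Those of EIF4A2 and EIF2S3 lie at chr3:186783562-186783591 and chrX:24054941-24054970, both on the plus strand. The windows of EIF2S1, at chr14:67360313-67360342 on the plus strand, and EEF1G, at chr11:62573877-62573906 on the minus strand, hold no such run.
EEF1A1: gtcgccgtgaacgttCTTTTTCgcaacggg
EEF1B2: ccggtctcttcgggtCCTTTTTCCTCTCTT
EEF2: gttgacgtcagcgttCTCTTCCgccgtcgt
EIF4B: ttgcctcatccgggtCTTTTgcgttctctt
EIF4A2: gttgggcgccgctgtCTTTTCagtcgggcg
EIF2S3: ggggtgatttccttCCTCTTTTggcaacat
EIF2S1: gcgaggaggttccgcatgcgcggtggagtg
EEF1G: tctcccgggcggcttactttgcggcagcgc

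In sum, upon METTL16 KO 12 of the 43 members tested were lower and 19 higher (limma, adjusted p under 0.05), and 12 did not pass. The members called lower were 27.9% of those tested, against 25.6% of all genes, and the members called higher were 44.2%, against 50.1% of all genes. The groups of 2 libraries did not overlap in 38 of the 43 members, or 88.4%, where 87.4% of all genes tested showed this. The members had a median log2 change of 0.027. After median-ratio scaling 22 members were lower and 10 were higher, or 51.2% and 23.3%, against 36.5% and 36.4% of all genes, and the median of the members was then -0.14. All 12 members called lower were also lower after scaling, while 9 of the 19 called higher no longer passed. The 10 that were higher under both scales were EEF1A2, EEF2KMT, EIF1AD, EIF1B, EIF2B2, EIF2B3, EIF4A2, EIF4EBP2, EIF5A2 and EIF6. Some members overlap a gene on the opposite strand that is also in the table, such as EIF4A2 with RFC4, EIF2S2 with RALY and EIF4G2 with CTR9. EIF1B, EIF4A1, EIF4E3, EIF5, EIF6 and EEF1G each overlap an annotated protein-coding gene on the same strand that is not in the table. EIF2S3, EEF1A2 and EIF5A2 overlap no annotated protein-coding or long noncoding RNA gene, and other gene types were not searched.

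**Figure D1:**
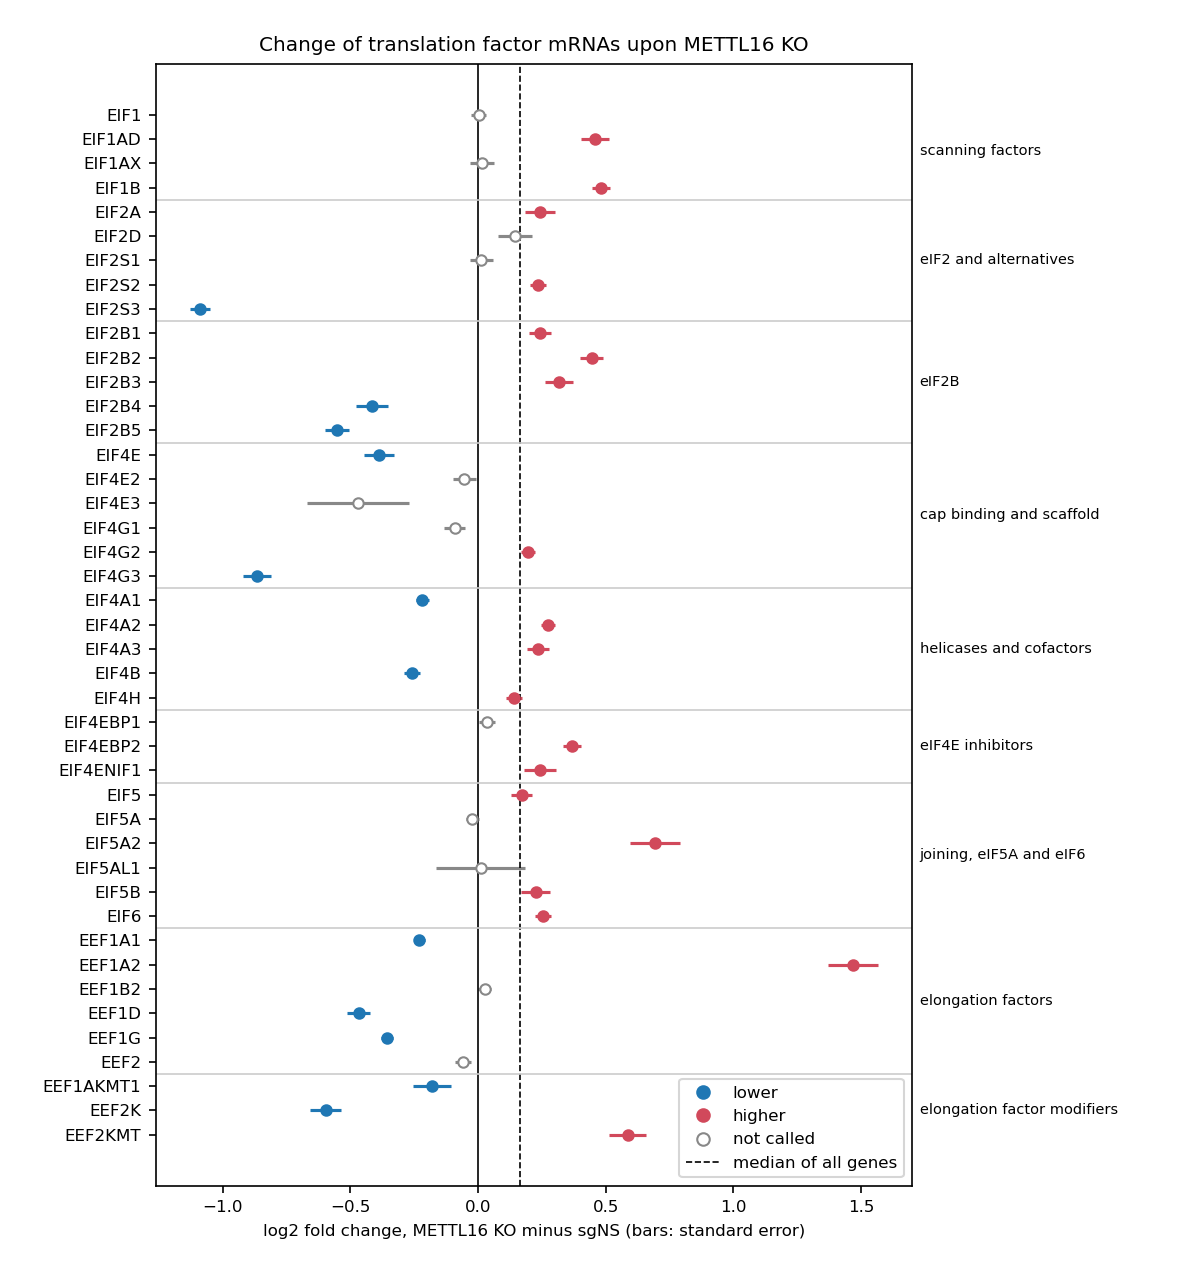
Log2 fold change of each of the 43 translation factor mRNAs tested, METTL16 KO minus sgNS, with its standard error from limma (n = 2 libraries per group). Filled points passed an adjusted p of 0.05, and the dashed line at 0.16 is the median of all genes tested. EIF2S3 and EIF4G3 lie farthest to the left and EEF1A2 farthest to the right, and subunits of eIF2, eIF2B and eEF1 fall on different sides of 0.

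The largest fall was in EIF2S3, which encodes the gamma subunit of eIF2, the subunit that binds GTP and the initiator tRNA. EIF2S3, on the plus strand of chromosome X of GRCh38 from 24054946 to 24078810, was listed at 142.9 and 147.2 TPM with sgNS and 68.0 and 68.4 TPM upon METTL16 KO. The METTL16 KO libraries held 47.0% of the sgNS mean and lay far below both sgNS libraries. Its log2 change was -1.09 (SE 0.039, limma adjusted p 1.7e-09) and -1.25 after scaling. EIF2S1, the alpha subunit that the stress kinases phosphorylate, was listed at 73.8 and 76.6 TPM with sgNS and 77.4 and 74.5 TPM upon METTL16 KO. These groups overlapped, and the log2 fold change of EIF2S1 was 0.014, with a 95% interval from -0.083 to 0.11. After scaling EIF2S1 was at -0.15 and passed as lower. EIF2S2, the beta subunit, was listed at 245.8 and 245.6 TPM against 288.0 and 290.1 TPM, a log2 change of 0.23 (SE 0.031) that no longer passed after scaling, at 0.069.
In sgNS the 3 subunit mRNAs stood in the order EIF2S2, EIF2S3, EIF2S1, and in METTL16 KO EIF2S3 was the lowest. The ratio of EIF2S3 to EIF2S1, which a single scaling factor per library cannot move, was 1.94 and 1.92 in sgNS and 0.878 and 0.919 in METTL16 KO. The ratio of EIF2S3 to EIF2S2 was 0.582 and 0.599 in sgNS and 0.236 in each METTL16 KO library. EIF2A and EIF2D, which can deliver initiator tRNA without eIF2, differed in their call. EIF2A rose by 0.24 on the log2 scale, a call lost after scaling, whereas EIF2D had a log2 change of 0.14 with groups that overlapped (limma, adjusted p 0.071) and -0.020 after scaling.

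The 5 subunits of eIF2B, the exchange factor of eIF2, separated into 3 that rose and 2 that fell. The subunits that fell are the catalytic epsilon subunit EIF2B5 and the delta subunit EIF2B4. EIF2B5, on the plus strand of chromosome 3 from 184135038 to 184146127, was listed at 49.2 and 48.4 TPM with sgNS and 33.3 and 33.1 TPM upon METTL16 KO, a log2 change of -0.55 (SE 0.048, limma adjusted p 1.4e-06). EIF2B4, on the minus strand of chromosome 2 from 27364352 to 27370338, was listed at 40.2 and 39.1 TPM against 31.6 and 27.9 TPM, a log2 change of -0.42 (SE 0.064, limma adjusted p 1.3e-04).
In both genes each METTL16 KO library lay below each sgNS library, and the calls held after scaling, at -0.72 and -0.58. EIF2B2, the beta subunit, was listed at 47.5 and 48.7 TPM against 65.8 and 65.2 TPM, a log2 change of 0.45 (SE 0.044). EIF2B3, the gamma subunit, was listed at 25.9 and 25.0 TPM against 31.3 and 32.2 TPM, a log2 change of 0.32 (SE 0.054), and both genes still passed after scaling. EIF2B1, the alpha subunit, went from 73.2 and 72.8 TPM to 88.4 and 84.3 TPM, with a log2 change of 0.24 that did not pass after scaling, at 0.077. The ratio of EIF2B5 to EIF2B1 was 0.673 and 0.664 in sgNS and 0.377 and 0.393 in METTL16 KO. That of EIF2B4 to EIF2B2 was 0.846 and 0.802 in sgNS and 0.480 and 0.428 in METTL16 KO.

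**Figure D2:**
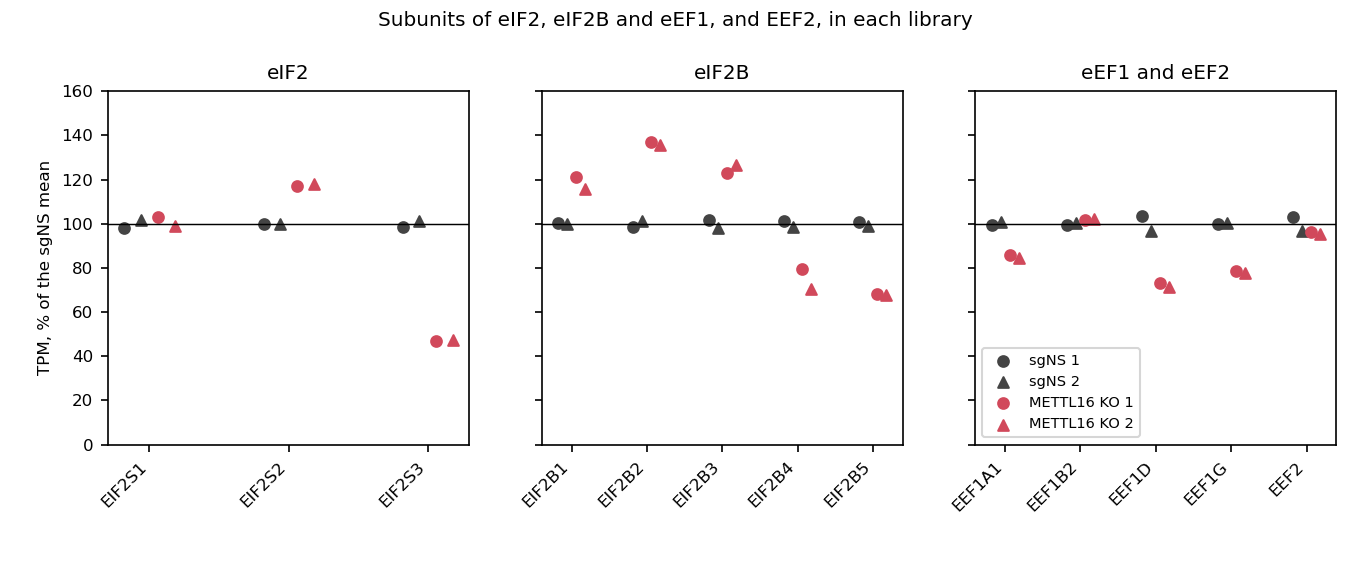
TPM of the subunits of eIF2, eIF2B and eEF1 and of EEF2 in each library, as a percentage of the sgNS mean of that gene (vertical axis), with sgNS libraries in dark grey and METTL16 KO libraries in red. EIF2S3 was at 47.0% of its sgNS mean in METTL16 KO while EIF2S1 was at 100.9%, and EIF2B4 and EIF2B5 lie below 100 while EIF2B1, EIF2B2 and EIF2B3 lie above it.

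Among the scanning factors, EIF1 and EIF1AX did not pass, whereas EIF1B, a close paralog of EIF1, rose. EIF1 was listed at 705.8 and 714.1 TPM with sgNS and 700.5 and 721.6 TPM upon METTL16 KO, and the 95% interval of its log2 fold change ran from -0.061 to 0.065. EIF1AX was listed at 64.6 and 68.5 TPM against 67.5 and 67.0 TPM, with an interval from -0.086 to 0.12. After scaling both genes passed as lower, at -0.16 and -0.15. EIF1B was listed at 132.1 and 133.7 TPM against 182.5 and 189.0 TPM, a log2 change of 0.48 (SE 0.036, limma adjusted p 5.0e-07) and 0.32 after scaling. EIF1 thus went from 5.34 times the level of EIF1B in both sgNS libraries to 3.84 and 3.82 times in METTL16 KO. EIF1AD, which is named for its eIF1A-like domain, rose by 0.46 on the log2 scale and by 0.29 after scaling.

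Of the 6 cap-binding and scaffold genes tested, EIF4E and EIF4G3 fell and EIF4G2 rose. EIF4G3, a scaffold related to EIF4G1, lies on the minus strand of chromosome 1 from 20806292 to 21177285 and showed the second largest fall of all members. It was listed at 38.7 and 39.3 TPM with sgNS and 21.99 and 20.74 TPM upon METTL16 KO, so that the groups lay far apart. Its log2 change was -0.87 (SE 0.055, limma adjusted p 1.4e-07) and -1.03 after scaling. EIF4E, the cap-binding subunit, was listed at 30.2 and 32.4 TPM against 23.4 and 24.4 TPM, a log2 change of -0.39 (SE 0.059, limma adjusted p 1.2e-04) and -0.55 after scaling.
EIF4G1, the main scaffold, was listed at 203.4 and 191.1 TPM against 187.3 and 182.7 TPM. Its groups did not overlap, but its log2 fold change of -0.092 had an adjusted p of 0.053 in limma, and it passed as lower after scaling, at -0.26. EIF4G2, which lacks the part that binds eIF4E and serves cap-independent initiation, was listed at 555.4 and 550.1 TPM against 628.6 and 637.4 TPM. Its log2 fold change of 0.20 no longer passed after scaling, at 0.030. The ratio of EIF4G1 to EIF4G3 rose from 5.25 and 4.86 with sgNS to 8.52 and 8.81 upon METTL16 KO. EIF4E2, a relative of eIF4E that can repress bound mRNAs, had a log2 change of -0.053 (limma adjusted p 0.31) and passed as lower after scaling, at -0.22. EIF4E3, a low relative of eIF4E, was listed at 1.75 and 1.95 TPM with sgNS and 1.16 and 1.47 TPM upon METTL16 KO. Its log2 change of -0.47 missed the threshold (limma, adjusted p 0.052) and passed as lower after scaling, at -0.62. After scaling 5 of the 6 cap-binding and scaffold genes (83.3%) were lower and EIF4G2 was not called. Of all genes 36.5% were lower after scaling, and of all members tested 51.2%, and the difference was not tested.

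The helicase paralogs moved in opposite directions. EIF4A1 was listed at 1338.8 and 1317.9 TPM with sgNS and 1148 and 1134 TPM upon METTL16 KO, a log2 change of -0.22 (SE 0.026, limma adjusted p 1.6e-05). EIF4A2 was listed at 705.0 and 708.0 TPM against 859.7 and 848.8 TPM, a log2 change of 0.27 (SE 0.027, limma adjusted p 3.8e-06). Both calls held after scaling, at -0.38 and 0.11, and EIF4A1 went from 1.90 and 1.86 times the level of EIF4A2 to 1.34 times in each METTL16 KO library. The summed TPM of the pair was 2044 and 2026 in sgNS and 2008 and 1983 in METTL16 KO, a log2 ratio of -0.028. After scaling the sums were 2155 and 2154 against 1890.2 and 1877, a log2 ratio of -0.19.
EIF4B, which stimulates the helicase, fell from 390.6 and 385.9 TPM to 326.2 and 323.0 TPM, a log2 change of -0.26 (SE 0.030) and -0.42 after scaling. EIF4H, which has a related activity, was listed at 291.4 and 285.9 TPM against 320.7 and 315.6 TPM, and its log2 change was 0.14, a call that did not hold after scaling, where the value was -0.025. EIF4A3, the helicase of the exon junction complex, was listed at 111.5 and 107.6 TPM against 124.7 and 133.1 TPM, with a log2 change of 0.23 and no call after scaling. The annotated read-through gene SENP3-EIF4A1 overlaps EIF4A1 on the same strand and is not listed in the table, so its reads could be counted to EIF4A1.

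Of the inhibitors of eIF4E, EIF4EBP2 rose and EIF4EBP1 did not pass. EIF4EBP1 was listed at 306.4 and 298.3 TPM with sgNS and 307.9 and 311.6 TPM upon METTL16 KO, a log2 change of 0.035 with a 95% interval from -0.036 to 0.11, and after scaling it passed as lower, at -0.13. EIF4EBP2 was listed at 156.0 and 152.0 TPM against 196.4 and 201.0 TPM, a log2 change of 0.37 (SE 0.036, limma adjusted p 3.5e-06) and 0.20 after scaling. Per length, the mRNA of EIF4E was the least abundant of the 3 in every library, at 0.0986 and 0.108 of the level of EIF4EBP1 in sgNS and at 0.0759 and 0.0784 in METTL16 KO. Against EIF4EBP2 the ratio of EIF4E was 0.194 and 0.213 in sgNS and 0.119 and 0.121 in METTL16 KO. EIF4ENIF1, which carries eIF4E into the nucleus, rose by 0.24 on the log2 scale, a call lost after scaling.

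Of the factors of subunit joining and late initiation, EIF5, EIF5B and EIF6 rose. EIF5, which activates the GTPase of eIF2, was listed at 69.0 and 69.2 TPM with sgNS and 77.9 and 77.8 TPM upon METTL16 KO. EIF5B, a GTPase of subunit joining, was listed at 53.4 and 54.2 TPM against 66.9 and 59.1 TPM. The log2 fold changes of 0.17 for EIF5 and 0.23 for EIF5B did not pass after scaling, at 0.0060 and 0.060. EIF6, which keeps the large subunit from joining too early, was listed at 270.5 and 265.3 TPM against 320.5 and 319.3 TPM, a log2 change of 0.26 (SE 0.031) and 0.091 after scaling, and both passed.
EIF5A, which relieves stalled ribosomes and carries the modified residue hypusine, was among the 5 most abundant members, at 1052 and 1068 TPM in sgNS and 1040.3 and 1046 TPM in METTL16 KO. Its log2 change was -0.023, with a 95% interval from -0.080 to 0.035, and it passed as lower after scaling, at -0.19. Its paralog EIF5A2, on the minus strand of chromosome 3 from 170888418 to 170908644, rose from 5.49 and 6.30 TPM to 9.27 and 9.87 TPM, a log2 change of 0.69 (SE 0.097, limma adjusted p 6.3e-05) and 0.53 after scaling. EIF5A remained 112 and 106 times as abundant as EIF5A2 in METTL16 KO, against 192 and 170 times in sgNS. EIF5AL1, an intronless copy that can share reads with EIF5A, was at 1.73 to 1.89 TPM in all libraries and did not pass, with a log2 change of 0.010, or -0.15 after scaling.

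Elongation factors made up most of the members' RNA. The 6 eEF1 and eEF2 genes summed to 11995 and 11974 TPM in sgNS and to 10446 and 10333 TPM in METTL16 KO, a log2 ratio of -0.21. After scaling the log2 ratio of these sums was -0.37. The 36 members whose symbols start with EIF, the inhibitors of eIF4E included, summed to 7367 and 7339.8 TPM with sgNS and 7502 and 7515 TPM upon METTL16 KO, a log2 ratio of 0.030 that turned to -0.14 after scaling. EEF1A1, the most abundant member, was listed at 6116 and 6194 TPM with sgNS and 5284 and 5209 TPM upon METTL16 KO, a log2 change of -0.23 (SE 0.022, limma adjusted p 3.0e-06) and -0.40 after scaling. Processed pseudogenes of EEF1A1 share its sequence, so its level is uncertain.
EEF1G, the gamma subunit on the minus strand of chromosome 11 from 62559596 to 62574086, fell from 2742 and 2760 TPM to 2162 and 2141 TPM, a log2 change of -0.35 (SE 0.023, limma adjusted p 1.7e-07) and -0.52 after scaling. Another annotated protein-coding gene overlaps EEF1G on the same strand and is not listed in the table. The call of EEF1G was lost with quantile normalization, where the value was -0.024. EEF1D, the delta subunit on the minus strand of chromosome 8 from 143579697 to 143599541, was listed at 127.9 and 119.8 TPM against 90.7 and 88.3 TPM, a log2 change of -0.47 (SE 0.044, limma adjusted p 2.6e-06) and -0.63 after scaling. EEF1B2, the remaining subunit of the exchange complex, was listed at 1017 and 1027 TPM against 1041 and 1042 TPM. Its log2 change was 0.027 with an interval from -0.030 to 0.084. EEF1B2 passed as lower after scaling, at -0.14, and as higher with quantile normalization, at 0.077, so it has no settled direction.
The ratio of EEF1G to EEF1B2 was 2.70 and 2.69 in sgNS and 2.08 and 2.06 in METTL16 KO. EEF2, the translocase, was listed at 1989 and 1870 TPM against 1858 and 1844 TPM, a log2 change of -0.059 with an interval from -0.13 to 0.0090, and it passed as lower after scaling, at -0.22.

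EEF1A2, the eEF1A paralog typical of muscle and neurons, showed the largest rise of all members. It lies on the minus strand of chromosome 20 from 63488013 to 63499239 and was listed at 3.37 and 3.47 TPM with sgNS and 9.33 and 9.94 TPM upon METTL16 KO, a log2 change of 1.47 (SE 0.098, limma adjusted p 2.0e-07) and 1.30 after scaling. EEF1A1 was still 566 and 524 times as abundant as EEF1A2 in METTL16 KO, against 1815 and 1785 times in sgNS. The sum of both genes was 6120 and 6197 TPM with sgNS and 5294 and 5219 TPM upon METTL16 KO. Of the enzymes that modify elongation factors, EEF2K, the kinase that inhibits eEF2, fell from 32.34 and 30.03 TPM to 20.6 and 20.5 TPM. It lies on the plus strand of chromosome 16 from 22206278 to 22288738, and its log2 change was -0.60 (SE 0.059, limma adjusted p 4.1e-06) and -0.76 after scaling. EEF2KMT, a methyltransferase of eEF2, rose from 11.1 and 10.2 TPM to 16.04 and 16.07 TPM, a log2 change of 0.59 (SE 0.073) and 0.42 after scaling. EEF1AKMT1, a methyltransferase of eEF1A, was listed at 15.7 and 14.2 TPM against 13.6 and 12.9 TPM, with an adjusted p of 0.047 in limma that left the threshold when any of 3 single libraries was left out.

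**Figure D3:**
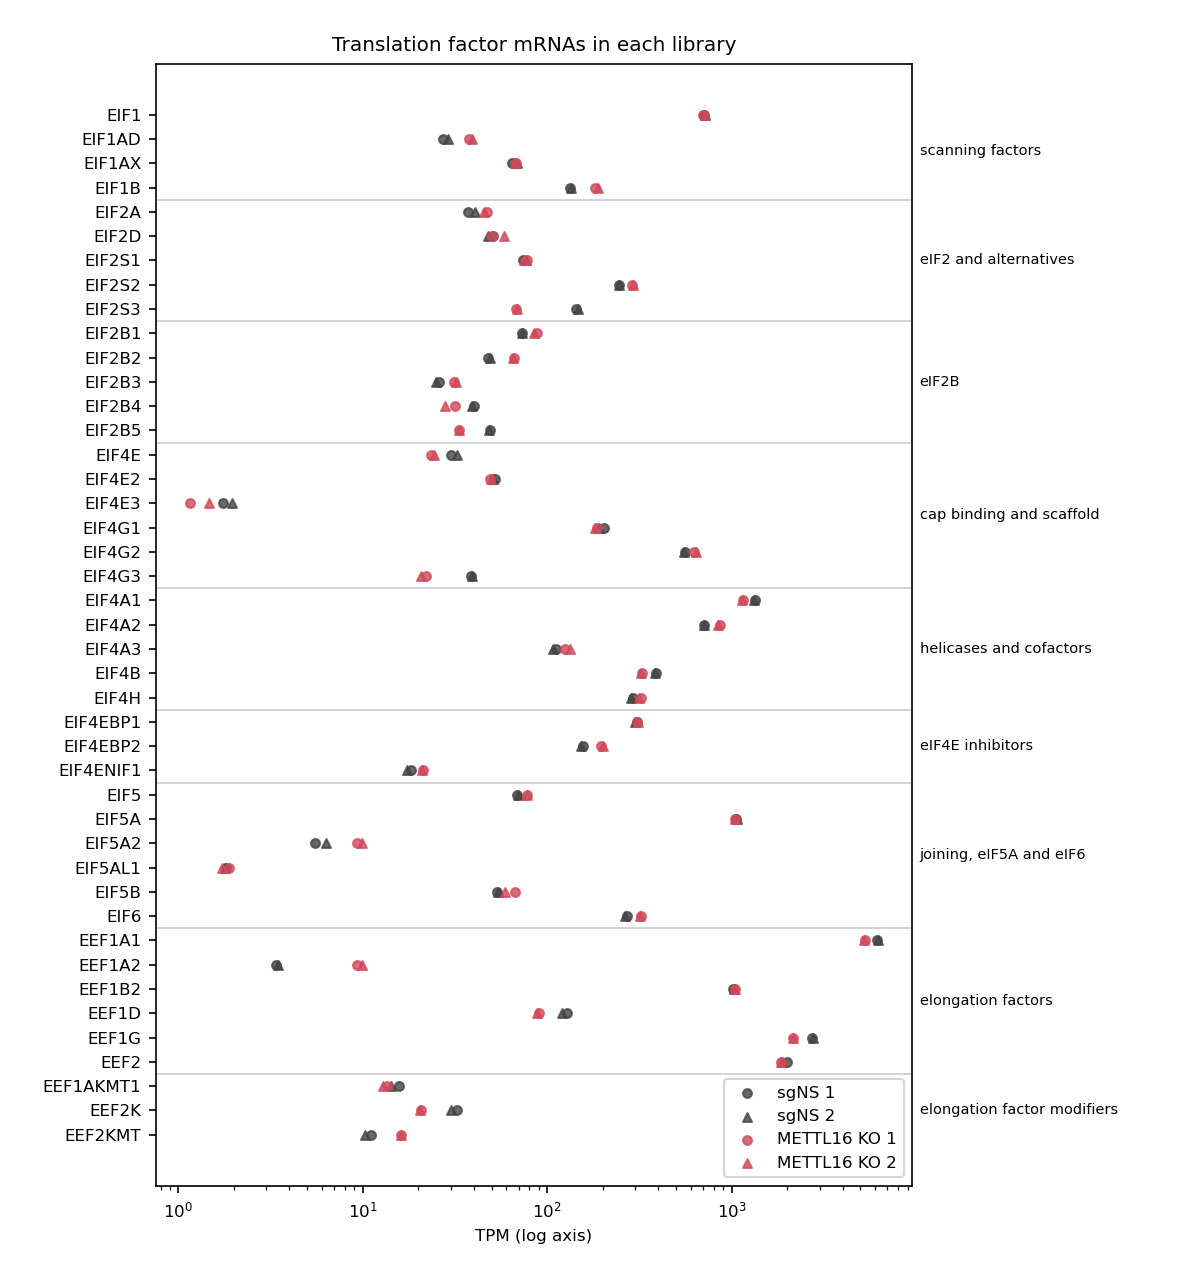
TPM of the 43 members tested in each of the 4 libraries, on a log axis, grouped by role. EEF1A1 lies at 5208.71 TPM or more and EIF4E3 and EIF5AL1 below 2 TPM in every library. For most genes the distance between the groups is small beside the distance between genes.

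**Figure D4:**
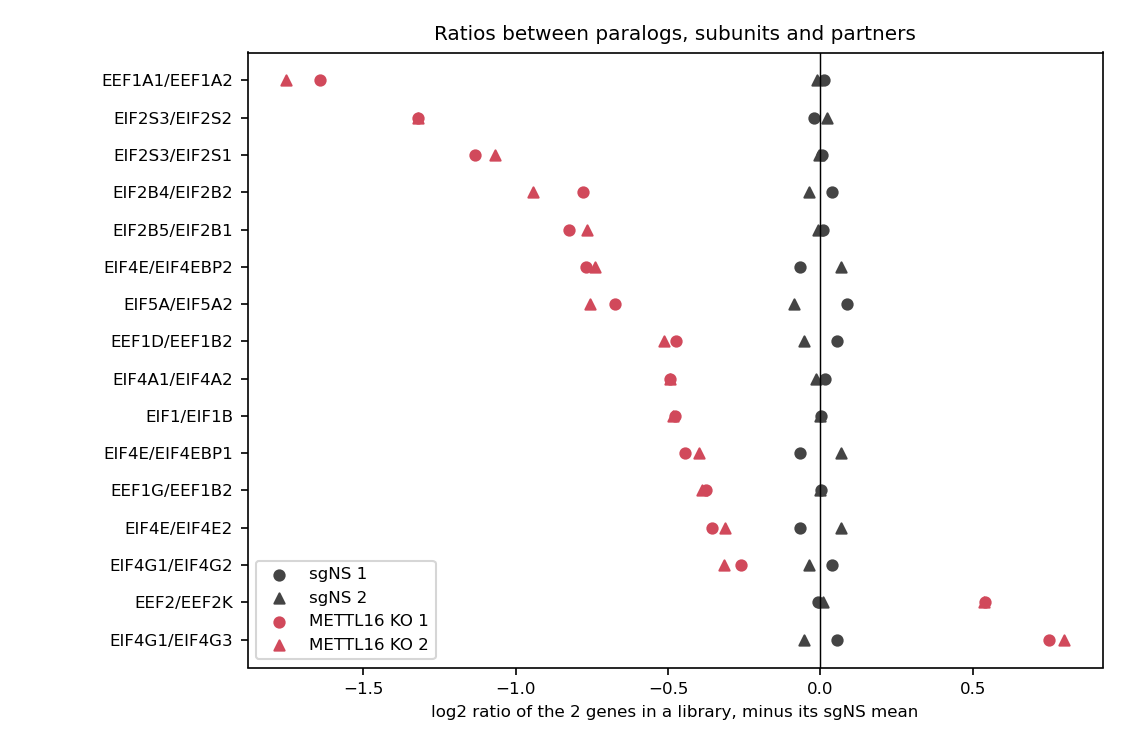
Log2 ratio of 2 members within a library, minus the sgNS mean of that ratio, for 16 pairs of paralogs, subunits or partners, with sgNS libraries in dark grey and METTL16 KO libraries in red. In all 16 pairs, chosen with earlier results known, the groups do not overlap, from -1.70 for EEF1A1 to EEF1A2 up to 0.77 for EIF4G1 to EIF4G3. For single genes the groups did not overlap in 87.4% of all genes tested, and the share over other pairs was not computed.

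The plot of ratios between members shows the relations that a single scaling factor per library leaves as they are. The 16 pairs were chosen with earlier results of these data known, so that their separation is a description. The exact two-sided permutation test of 2 against 2 libraries gave its smallest possible p of 0.33 for each pair. The largest gap between libraries of 1 group was 0.17 on the log2 scale, for EIF5A to EIF5A2, and the smallest difference between the group means was 0.29, for EIF4G1 to EIF4G2. The ratio of EEF2 to its kinase EEF2K rose from 61.5 and 62.3 with sgNS to 90.1 and 89.9 upon METTL16 KO.

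A C with a pyrimidine run within 2 bases of an annotated start was found, on the strand of the gene only, in 11 of the 37 tested members that the RefSeq table holds, or 29.7%, and in 16.5% of the 9331 tested genes it holds. The 11 were EEF1A1, EEF1B2, EEF2, EIF2A, EIF2D, EIF2S3, EIF4A2, EIF4B, EIF4E2, EIF4EBP2 and EIF4G2. A gene was counted if any of its annotated starts held the run, and EEF1B2, EIF4E2 and EIF4G2 each also have a start without it. In METTL16 KO 3 of them were lower, 4 were higher and 4 did not pass, and their median was 0.027 on the log2 scale. After scaling EEF1B2, EEF2 and EIF4E2 also passed as lower, while EIF2A and EIF4G2 no longer passed as higher. Over all genes tested 36.5% were lower and 36.4% higher after scaling. Before scaling, of all 1544 tested genes with the run 29.5% were lower and 45.3% higher, with a median of 0.11. Of the 26 members without the run 7 were lower and 12 higher (26.9% and 46.2%), with a median of 0.014. Among all 7787 tested genes without the run 24.2% were lower and 51.8% higher, with a median of 0.18. As examples, EIF2S3, at -1.09, EIF4B, at -0.26, and EIF4A2, at 0.27, share the run and differ in their change. A relation between the run and the change was not tested. The annotated start need not be the one used in Huh7 cells.

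Other genes of translation, grouped in lists by their role, were counted in the same fit, in which 25.6% of all genes were lower and 50.1% higher, or 36.5% and 36.4% after scaling. Of the genes named from these lists, only DHPS lost its call after scaling. Of 7 termination and recycling genes tested, 4 rose (57.1%), among them ETF1, the release factor, by 0.57 and ZNF598, a sensor of collided ribosomes, by 0.48 on the log2 scale. After scaling the same number were higher, and ABCE1 and PELO, which help to split ribosomes and were named after their values were seen, passed as lower. Of 10 genes of poly(A) binding and reinitiation, 5 rose and 2 fell, a share of higher genes close to that of all genes, and after scaling 5 were higher and 5 lower. PABPC1, the main cytoplasmic poly(A)-binding protein, rose from 510 and 518 TPM to 869 and 845 TPM, a log2 change of 0.74 (SE 0.029), and PABPC4 rose by 0.64, whereas PAIP2B fell by 0.27 and LARP1, which binds TOP mRNAs, fell by 0.10. The enzymes of hypusine synthesis both rose, DHPS by 0.21 and DOHH by 0.47, but DHPS did not pass after scaling.
Of 6 eIF2 kinases and phosphatase subunits, 3 rose and 2 fell, before and after scaling. PPP1R15A, the inducible subunit that directs dephosphorylation of eIF2 alpha, rose from 58.3 and 57.9 TPM to 112.1 and 109.6 TPM, a log2 change of 0.93 (SE 0.041), and the kinase EIF2AK2 rose by 0.44. The kinases EIF2AK1 and EIF2AK3 fell by 0.27 and by 0.14. Of 12 genes of mTORC1 and MNK control 7 rose and 3 fell (58.3% and 25.0%), and after scaling 7 were higher and 5 lower. MKNK1, a kinase of eIF4E, rose from 11.8 and 10.8 TPM to 26.8 and 25.2 TPM, and MTOR rose by 0.64. RPS6KB2, an S6 kinase, fell by 1.06 and TSC2, an inhibitor of mTORC1, fell by 0.47.
Of 11 mitochondrial translation factors 7 rose and 3 fell (63.6% and 27.3%), and after scaling 6 were higher and 4 lower, with unscaled changes for MTRF1 of 0.55, MTIF2 of 0.47, GUF1 of -0.22 and C12orf65 of -0.21. The selenoprotein factors EEFSEC and SECISBP2 both fell, by 0.19 and by 0.36. For comparison, 6 of the 13 eIF3 subunits were lower and 6 higher (46.2% each), with a median of 0.0029 on the log2 scale against 0.027 for the 43 members. After scaling 7 were lower and 3 higher, with a median of -0.16 against -0.14 for the members, and the difference between these groups of genes was not tested.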

How the data were processed

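RNA-seq was performed on 2 sgNS and 2 METTL16 KO libraries of Huh7 cells. According to the methods and labels, the authors used Cutadapt for trimming, STAR for mapping (GRCh38) and RSEM for gene levels, with versions and annotation not given in the sources used here. The authors deposited TPM values rounded to 2 decimals, which the methods call RPKM but which sum to 1000000 in each library. TPM keeps no counts, so no counting error is given. For the library type the labels name both Ribozero and a kit for mRNA. From the deposited values, the 11971 genes whose mean reached 1 TPM were taken to the log2(TPM + 0.1) scale. METTL16 KO was compared with sgNS in limma 3.58.1 (R 4.3.3) with a mean-variance trend, two-sided, without a block, and p-values were adjusted by Benjamini-Hochberg over all genes tested. Fold changes on this scale understate those of low genes. Median-ratio scaling divided each library by the median ratio of its genes to their geometric means. The members and gene lists were chosen with earlier results of these data known. Values in every library are given for 33 members chosen by rule. These are principal factors and members that passed and lay at least 0.5 from the median of all genes. Such values are also given for EIF1B, EIF4E1B, EIF4E3, EIF4EBP3, EEF2KMT and EEF1AKMT1, which the rule does not cover. Other members are named by role. From each other list up to 2 called genes per direction are named. The methods call the pairs biological replicates, but whether they came from separate transductions or cultures is not given, so p-values measure the spread between these libraries. Gene positions are those of GENCODE release 44, and start sites those of RefSeq, both on GRCh38. Whether the authors counted by strand is not stated, so reads of overlapping genes could be shared. Python 3.11.15, pandas 2.3.3, scipy 1.17.1 and matplotlib 3.10.9 were used. The alternatives tried were pseudocounts, filters, median-ratio and quantile scaling, the replicate block, limma without trend, a fold threshold, core factors alone and each library left out.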

Additional observations from a re-analysis of the deposited data

How the results depend on the processing

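Of the 31 members called, 10 of 12 lower and 10 of 19 higher ones kept their call in all 12 alternative fits. Median-ratio scaling gave 22 lower and 10 higher members, a median of the members of -0.14 and a log2 ratio of their summed TPM of -0.28 against -0.11 as reported. That ratio was -0.060 without EEF1A1. With a log2 change of 0.5 or more in size required, 4 members were lower and 3 higher. Among the 43 members tested, those that changed sign with median-ratio scaling were EEF1B2 at -0.14, EIF1 at -0.16, EIF1AX at -0.15, EIF2S1 at -0.15, EIF4EBP1 at -0.13, EIF4H at -0.025, EIF2D at -0.020 and EIF5AL1 at -0.15. With quantile normalization they were EEF2 at 0.074, EIF1 at -0.021, EIF1AX at -0.10, EIF2S1 at -0.12, EIF4EBP1 at -0.054, EIF5A at 0.012 and EIF5AL1 at -0.31. A pseudocount of 1 brought the log2 ratio change of EEF1A1 to EEF1A2 to -1.497, of EIF5A to EIF5A2 to -0.64 and of EEF2 to EEF2K to 0.52, by construction, since it weighs on low genes. With single libraries left out, the values of EIF1 (-0.019 to 0.024), EIF1AX (-0.027 to 0.058) and EIF2S1 (-0.015 to 0.042) changed sign among the 33 members chosen by rule. Leaving out METTL16 KO replicate 1 ended the calls of EIF2A, EIF4ENIF1, EIF5B and EEF1AKMT1, and leaving out METTL16 KO replicate 2 or sgNS replicate 1 that of EEF1AKMT1. Without sgNS replicate 2, EEF2 and EIF4G1 passed as lower, without METTL16 KO replicate 2 EIF4E3 did, and without METTL16 KO replicate 1 EIF2D passed as higher. The cause of these changes was not tested. With the replicate block, 15 members were lower and 20 higher. The deviations of same-numbered libraries had a correlation of -0.044 across genes. With 2 libraries per group this cannot tell whether same-numbered libraries share more than a number. With 2 libraries per group and no counts, the counting error of low genes such as EIF4E3, which passed as lower in 6 of 11 alternative fits, is unknown.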
